A study of Mus musculus with 16 samples.

Results

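The 7 Wnt ligands described here, Wnt2, Wnt2b, Wnt5a, Wnt5b, Wnt9a, Wnt11 and Wnt16, were measured in the facial ectoderm and mesenchyme of mouse embryos with and without Esrp1, a splicing regulator of epithelial cells. They were selected on the wild-type (WT) values, as the 7 of 19 Wnt ligands in the table whose level in WT ectoderm was not above that in WT mesenchyme, so the WT difference between the layers is given below as a description. The table held 30286 distinct gene symbols, and each of the 7 ligands had 1 row.

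The 4 groups were Esrp1 knockout (KO, Esrp1-/-) ectoderm, WT ectoderm, KO mesenchyme and WT mesenchyme. All came from the facial prominences, the buds that form the face, of C57BL/6 embryos at embryonic day 12, with the layers separated by surgery. Each group had 4 libraries, and each library was made from 6 to 7 pooled embryos. The labels do not name the deleted part of Esrp1. The deposited table gives 1 value per gene and group in TPM (a relative transcript abundance, scaled for library depth and transcript length), so no difference below has a replicate check, an error or a test, and the depth behind the values is unknown.

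Wnt proteins are secreted, lipid-bearing signals that are acylated by Porcn, carried out of the cell by Wls and read by Frizzled receptors. A branch of the pathway stabilises beta-catenin, and another acts without it, through the receptors Ror1, Ror2, Ryk and Ptk7, on cell shape, polarity and movement. Wnt5a, Wnt5b and Wnt11 are best known for the second branch. In the mouse, loss of Wnt5a shortens the outgrowing face and limbs and leaves a cleft palate. Wnt2, Wnt2b and Wnt9a are mostly known as beta-catenin ligands, and Wnt16 for its role in bone.

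Esrp1 stood at 62.9 TPM in KO ectoderm and 170 TPM in WT ectoderm, and at 1.0 TPM in both mesenchyme groups. The 25 epithelial markers, Krt14 and Cdh1 among them, summed to 3840 TPM in KO ectoderm and 4376 TPM in WT ectoderm, and to 48.5 TPM in KO mesenchyme and 51.7 TPM in WT mesenchyme. The list includes Esrp1 itself. In ectoderm only Esrp1 and Krt15 (97.9 TPM in KO and 321 TPM in WT) were at least 1.5-fold lower in KO, and none was higher by that much. The median log2 ratio of KO over WT (TPM plus 1) was -0.06, and some, such as Epcam (253 TPM in KO and 212 TPM in WT), were higher in KO. The 29 mesenchyme markers summed to 936 TPM in KO ectoderm and 473 TPM in WT ectoderm, and to 3096 TPM in KO mesenchyme and 4647 TPM in WT mesenchyme. No marker of either list was at 0 in any group, and the mesenchyme markers were also higher in KO than in WT ectoderm.

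Wnt5a was by far the most abundant of the 7 ligands in every group. It stood at 57.3 TPM in KO ectoderm, 33.7 TPM in WT ectoderm, 141 TPM in KO mesenchyme and 167 TPM in WT mesenchyme. Among the 19 ligands its rank was 4 in KO ectoderm, 7 in WT ectoderm and 1 in both mesenchyme groups. Wnt5a lies on chromosome 14 (28504750 to 28527448, plus strand, GRCm38, the assembly also called mm10). In mesenchyme it supplied 84.5% of all Wnt ligand TPM in KO and 81.8% in WT.

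Wnt5b and Wnt11 formed a second tier. Wnt5b, the closest relative of Wnt5a and a ligand of growing cartilage, stood at 8.84 TPM in KO ectoderm, 6.86 TPM in WT ectoderm, 6.62 TPM in KO mesenchyme and 11.95 TPM in WT mesenchyme. Its lowest value was thus in KO mesenchyme and its highest in WT mesenchyme. Wnt11, which steers cell movement during gastrulation in zebrafish and frogs, stood at 3.83 TPM in KO ectoderm, 1.38 TPM in WT ectoderm, 7.73 TPM in KO mesenchyme and 11.4 TPM in WT mesenchyme. The span of Wnt11 between WT layers, 8.25-fold more in mesenchyme, was the widest of the 7 ligands.

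The other ligands were low throughout. Wnt9a, which takes part in joint formation in the mouse, stood at 3.17 TPM in KO ectoderm, 3.41 TPM in WT ectoderm, 2.24 TPM in KO mesenchyme and 4.03 TPM in WT mesenchyme. Wnt2b stood at 1.40 TPM in KO ectoderm, 1.07 TPM in WT ectoderm, 2.18 TPM in KO mesenchyme and 3.06 TPM in WT mesenchyme. Wnt16 stood at 0.68 TPM in KO ectoderm, 0.62 TPM in WT ectoderm, 2.74 TPM in KO mesenchyme and 2.49 TPM in WT mesenchyme. Wnt16 was the 1 ligand of the 7 with a higher value in KO than in WT mesenchyme. Wnt2, which acts with Wnt2b in early lung formation in the mouse, was under 1 TPM everywhere, at 0.86 in KO ectoderm, 0.68 in WT ectoderm, 0.71 in KO mesenchyme and 0.98 in WT mesenchyme. Values are deposited to 2 decimals, so for Wnt2 and Wnt16 a step in the last digit is a visible part of a difference.

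**Figure D1:**
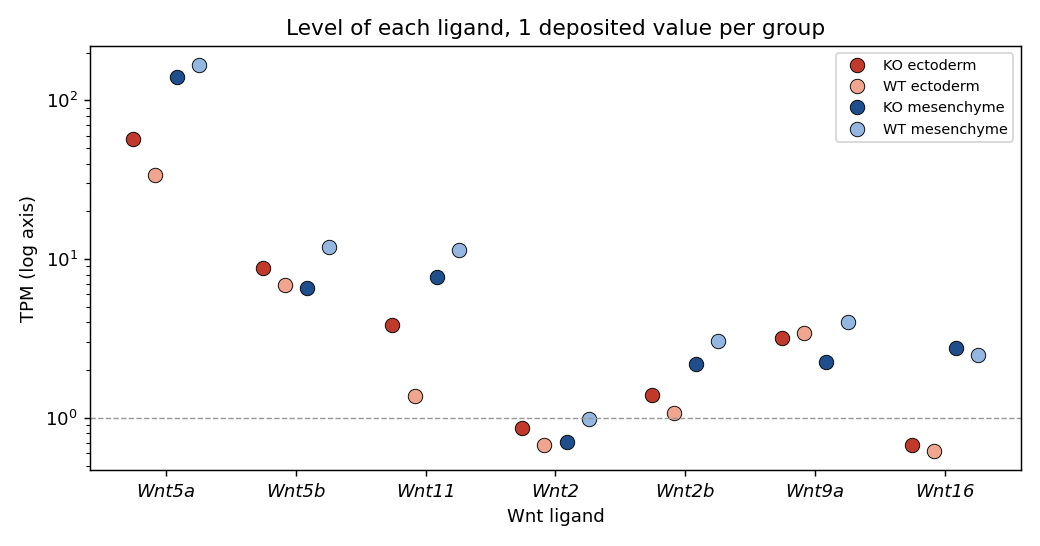
Level of each of the 7 ligands in TPM (log axis) in KO ectoderm, WT ectoderm, KO mesenchyme and WT mesenchyme, 1 deposited value per point, with a dashed line at 1 TPM. Wnt5a lies above all others in each group, from 33.7 to 167 TPM, and Wnt2 lies below 1 TPM in all 4.

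The starts of Wnt11, Wnt5b and Wnt9a, ligands on which the KO comparisons below turn, are shown as the 250 bases before the RefSeq start on the gene's strand (GRCm38.p6). Capitals mark matches, on either strand, to 6 motifs: TCF/LEF (CTTTG followed by AA, AT, TA or TT), a Gli core (TGGGTGG), AP-1 (TGANTCA), a Zeb/Snail E-box (CACCTG), the CCAAT box (CCAAT) and the TATA box (TATAAA). The Wnt11 window is chr7:98834862-98835111 (plus strand), that of Wnt5b chr6:119544348-119544597 (minus strand) and that of Wnt9a chr11:59306680-59306929 (plus strand).
Wnt11: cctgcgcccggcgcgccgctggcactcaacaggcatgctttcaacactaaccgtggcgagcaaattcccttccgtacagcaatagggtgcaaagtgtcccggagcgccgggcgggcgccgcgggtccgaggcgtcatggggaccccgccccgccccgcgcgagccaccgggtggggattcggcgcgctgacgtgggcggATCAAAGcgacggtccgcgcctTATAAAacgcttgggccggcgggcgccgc
Wnt5b: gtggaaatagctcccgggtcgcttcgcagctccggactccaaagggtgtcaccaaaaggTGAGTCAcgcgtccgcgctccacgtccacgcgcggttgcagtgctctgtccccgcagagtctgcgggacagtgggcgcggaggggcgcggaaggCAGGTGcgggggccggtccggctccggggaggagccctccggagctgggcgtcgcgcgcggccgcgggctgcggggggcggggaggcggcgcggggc
Wnt9a: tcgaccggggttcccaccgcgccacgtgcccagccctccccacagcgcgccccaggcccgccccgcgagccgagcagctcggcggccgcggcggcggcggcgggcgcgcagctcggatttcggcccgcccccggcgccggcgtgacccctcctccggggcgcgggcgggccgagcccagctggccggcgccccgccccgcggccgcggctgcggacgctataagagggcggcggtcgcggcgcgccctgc
The Wnt11 window held a TCF/LEF match that begins 51 bases before the start, and a TATA box that begins 29 bases before it. The Wnt5b window held an AP-1 match, 191 bases before the start, and an E-box match, 97 bases before it. The Wnt9a window held none of the 6 motifs and was 84.4% G and C, against 75.2% for Wnt5b, 70.8% for Wnt11 and a median of 52.4% over 32851 windows of the table. Of those windows 14.8% held a TCF/LEF match, 12.4% a TATA box, 6.7% an AP-1 match and 17.2% an E-box. The TCF/LEF, AP-1, E-box and TATA matches do not overlap each other in these 3 windows. A match is a string of letters and not a shown binding site. RefSeq gives further starts for Wnt11 (2 windows in all) and Wnt5b (3 in all), and the most upstream one is shown. The Wnt5b window at chr6:119449387-119449636 held a TCF/LEF and an E-box match, 71 and 43 bases before its start. The other windows of Wnt5b and Wnt11 held no match. Windows were found for 6 of the 7 ligands. Wnt5a has no entry.

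The rule that set these ligands apart left a wide gap only among ligands with a mean of at least 1 TPM over both WT layers. The members nearest to its edge were Wnt9a, at 3.41 TPM in WT ectoderm and 4.03 in WT mesenchyme, and Wnt2, at 0.68 TPM in WT ectoderm and 0.98 in WT mesenchyme. Just outside it were ligands that hardly register, Wnt8a (0.19 TPM in WT ectoderm and 0.03 in WT mesenchyme), Wnt8b and Wnt1. Among the 9 other ligands with a mean of at least 1 TPM over both WT layers, the smallest log2 ratio of TPM plus 1 was 2.75 in favour of ectoderm. The log2 ratio of Wnt9a was -0.19 on the deposited scale. It was 0.07 after quantile normalization and 0.08 with the trend of the ratios with transcript GC content removed. On both of these scales Wnt9a would have fallen outside.

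The levels in WT ectoderm were not a fixed fraction of those in mesenchyme. As a share of the WT mesenchyme level, WT ectoderm held 12.1% for Wnt11, 20.2% for Wnt5a, 24.9% for Wnt16, 35% for Wnt2b, 57.4% for Wnt5b, 69.4% for Wnt2 and 84.6% for Wnt9a. The 24 mesenchyme markers with at least 5 TPM in WT mesenchyme, and at least 5-fold more there than in WT ectoderm, held a median of 4.16%. That fold limit caps their share by choice, and 6 of the 7 ligands would not have met it. Between the KO layers Wnt16 kept the WT proportion, at 24.8%, on ectoderm values under 1 TPM. Wnt11 stood at 49.6%, Wnt5a at 40.5% and Wnt2b at 64.2% of the KO mesenchyme level.

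Of the 7 ligands 3 had more in ectoderm than in mesenchyme once both layers were KO, 2 of them among the 6 measured members. That is no more than over all measured genes, of which 49.9% had less in KO ectoderm and the median log2 ratio was 0.0. Wnt5b stood at 8.84 TPM in KO ectoderm and 6.62 TPM in KO mesenchyme, a log2 ratio of 0.37. Wnt9a (3.17 TPM in KO ectoderm and 2.24 in KO mesenchyme, 0.36) and Wnt2 (0.86 TPM in KO ectoderm and 0.71 in KO mesenchyme, 0.12) also had the higher value in ectoderm. No ligand was 2-fold higher in KO ectoderm, where 9.06% of all 14411 measured genes were, and 2 of 6 measured members, Wnt5a and Wnt16, were 2-fold lower, where 6.88% of genes were. Wnt16 reached the mean of 1 TPM only through KO mesenchyme, where it is high, so its place in this count is fixed in part by that limit. In WT, 3 of 6 were 2-fold lower in ectoderm (12.1% of genes), which the rule favours. With the trend of the ratios with transcript GC content removed, the KO values were -0.05 for Wnt5b, 0.06 for Wnt9a and -0.01 for Wnt2, so that Wnt5b and Wnt2 changed sign.

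Measured against all Wnt ligands, the 7 genes took a larger part of the ligand RNA in KO ectoderm. They summed to 76.0 TPM in KO ectoderm and 47.7 TPM in WT ectoderm, and to 164 TPM in KO mesenchyme and 200.5 TPM in WT mesenchyme. The 12 other ligands summed to 355 TPM in KO ectoderm and 486 TPM in WT ectoderm, and to 3.64 TPM in KO mesenchyme and 3.19 TPM in WT mesenchyme. The 7 ligands thus made up 17.6% of Wnt ligand TPM in KO ectoderm and 8.94% in WT ectoderm, and 97.8% in KO mesenchyme and 98.4% in WT mesenchyme. The larger part in ectoderm came from both sums, a higher one for these ligands and a lower one for the rest. The ligands were divided on WT values, which favours a lower WT ectoderm value for the 7 and a higher one for the 12. The larger part in KO is thus a description. Without Wnt5a the other 6 members summed to 18.8 TPM in KO ectoderm and 14.0 TPM in WT ectoderm. The ratio of Wnt5a to Wnt5b was 6.48 in KO ectoderm and 4.91 in WT ectoderm, and 21.4 in KO mesenchyme and 13.9 in WT mesenchyme.

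**Figure D2:**
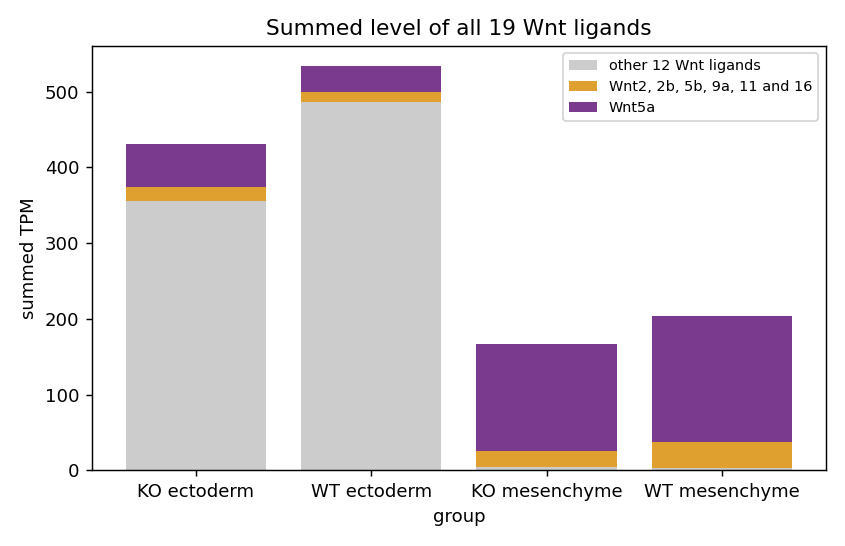
Summed TPM of all 19 Wnt ligands (bars from 0) in KO ectoderm, WT ectoderm, KO mesenchyme and WT mesenchyme, split into Wnt5a, the other 6 members and the 12 remaining ligands. The remaining ligands fill most of both ectoderm bars, 355 TPM in KO and 486 TPM in WT, and Wnt5a most of both mesenchyme bars.

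In KO ectoderm Wnt11 and Wnt5a, the 2 ligands with the lowest WT ectoderm level relative to WT mesenchyme, stood above WT. The WT ectoderm value that is the base of these ratios also entered the selection of the ligands, which favours a higher KO value, so the ratios are a description. Here 1 TPM was added to each value before the ratio, so that the change of low genes is understated, and genes were counted only where the mean of both groups reached 1 TPM. Wnt11 stood at 3.83 TPM in KO and 1.38 TPM in WT ectoderm, a log2 ratio of 1.02 and a plain fold of 2.78. Wnt5a stood at 57.3 TPM in KO and 33.7 TPM in WT ectoderm, a log2 ratio of 0.75 and a plain fold of 1.70. Among 5 measured members these 2 passed 1.5-fold upward and none passed it downward. Over all 13935 measured genes 4.92% were 1.5-fold higher and 0.452% lower, and 98.5% of them had a smaller ratio than Wnt11 and 96.8% a smaller one than Wnt5a.

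The remaining members moved little in ectoderm. Wnt5b had a log2 ratio of 0.32, Wnt2b of 0.21 and Wnt9a of -0.08, all within 1.5-fold. Wnt2 (0.15) and Wnt16 (0.05) were below the limit of 1 TPM. The median of the 5 measured members was 0.32, against 0.05 for all genes. The 9 measured ligands of the ectoderm ran the other way, from -0.88 to -0.19 with a median of -0.51, in a comparison that shares its libraries with this one. Those ligands were set apart by the same WT values, which favours a lower KO value for them.

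**Figure D3:**
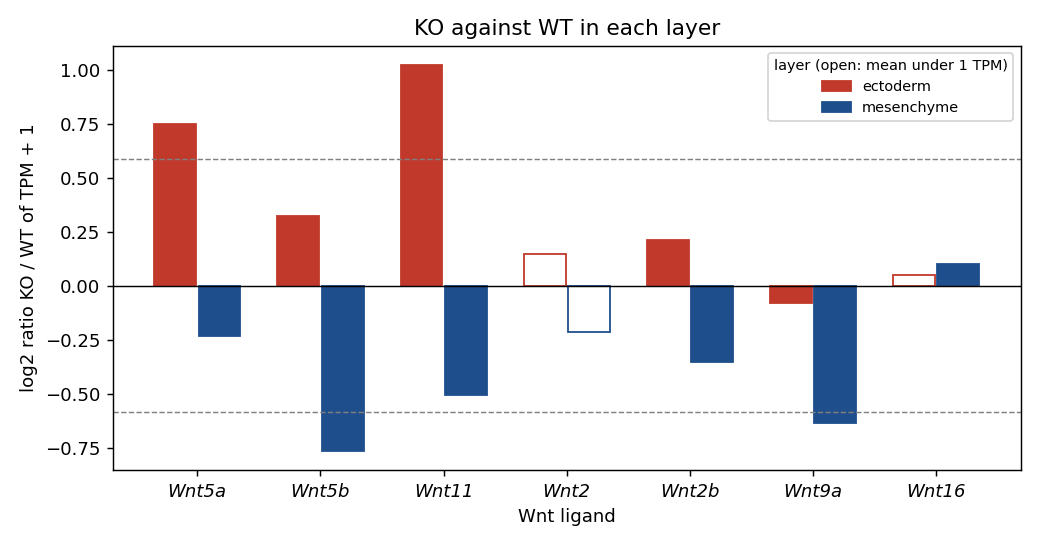
Log2 ratio of KO over WT (TPM plus 1) for each ligand in ectoderm and mesenchyme, with dashed lines at 1.5-fold and open bars where the mean was under 1 TPM. Wnt5a and Wnt11 pass the upper line in ectoderm, and Wnt5b and Wnt9a the lower line in mesenchyme.

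Markers of mesenchyme, endothelium, muscle and other cell types were higher in KO ectoderm too, and their values are given beside those of the ligands. Of 28 measured mesenchyme markers 22 passed 1.5-fold upward and none downward, for example Prrx1 (40.4 TPM in KO and 9.22 TPM in WT ectoderm). So did 12 of 13 endothelial and 12 of 13 skeletal muscle markers, 5 of 10 of cartilage and bone, 6 of 10 of neurons and 4 of 9 of macrophages and leukocytes, with none of these downward. The 15 endothelial markers summed to 66.8 TPM in KO ectoderm and 25.6 TPM in WT ectoderm, and the 15 muscle markers to 121 TPM in KO ectoderm and 42.5 TPM in WT ectoderm, with none at 0. In such bulk tissue more cells of a type and more RNA per cell cannot be told apart.

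To compare the ligands with these markers, the TPM gained in ectoderm (KO minus WT) were divided by the TPM by which WT mesenchyme exceeds WT ectoderm. For the 24 mesenchyme markers the gain had a median of 10.95%, from 5.94% to 15.5%. It was 24.5% for Wnt11 and 17.8% for Wnt5a, and 16.6% for Wnt2b and 38.9% for Wnt5b, all above this range. The range holds only markers with at least 5-fold more in WT mesenchyme than in WT ectoderm, a limit that among the ligands only Wnt11 met. Markers of lower fold were left out. Of these Msx1 gained (106 TPM in KO and 74.5 TPM in WT ectoderm, 193 TPM in WT mesenchyme), a larger part of its excess than Wnt11 or Wnt5a. Col5a1 (43.8 TPM in KO and 39.7 TPM in WT ectoderm, 82.4 TPM in WT mesenchyme) and Col5a2 (43.1, 39.1 and 110 TPM) gained a smaller part than either. Snai2 (29.2 TPM in KO and 30.1 TPM in WT ectoderm, 47.6 TPM in WT mesenchyme) and Dcn (28.7, 30.8 and 34.5 TPM) did not gain. Apart from these values, the ligands were not compared with markers of like fold. With KO mesenchyme in place of WT mesenchyme, the gain was 38.6% for Wnt11, 21.9% for Wnt5a and 29.7% for Wnt2b, all inside the range of 5.2% to 43.4% over 22 markers (median 16.4%), so that the order against the markers depends on which mesenchyme is taken. Against WT mesenchyme Wnt16 gained 3.21%, below all 24, where WT mesenchyme held 4.02-fold more of it than WT ectoderm. This is a gain of 0.06 TPM, between 0.68 TPM in KO and 0.62 TPM in WT ectoderm. Both values are under 1 TPM, so its place is not read. Wnt2 and Wnt9a have too small an excess, 0.30 and 0.62 TPM, for this percentage to be read. Skeletal muscle markers gained 11.3% to 22.7% (11 genes), a range that holds the Wnt5a value and ends below that of Wnt11, and cartilage and bone markers gained 10.6% to 37.0% (5 genes), a range that holds both. Endothelial markers gained 7.6% to 13.0% (13 genes), neuron markers 0.4% to 13.1% (5 genes) and 1 macrophage marker 12.5%. All of these lie below the values of Wnt5a and Wnt11.

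With 10.95% of WT mesenchyme taken out of KO ectoderm, Wnt11 stood at 2.90 TPM in KO ectoderm, against 1.38 TPM in WT ectoderm, a log2 ratio of 0.71. Wnt5a stood at 43.8 TPM in KO ectoderm, against 33.7 TPM in WT ectoderm, a ratio of 0.37 that is within 1.5-fold. At the muscle median of 14.1% the ratios were 0.59 for Wnt11 and 0.22 for Wnt5a. Wnt11 remained past 1.5-fold in both, at 14.1% only just, and both ligands kept a positive ratio. The larger cartilage and bone median of 21.9% of WT mesenchyme (5 genes) was not taken out. It exceeds the Wnt5a gain of 17.8%, so the positive ratio of Wnt5a is tied to the shares taken out. The part of the 7 ligands in all Wnt TPM of KO ectoderm was then 13.2% (mesenchyme median) and 11.9% (muscle median), against 8.94% in WT ectoderm. The part of other cell types in the ligand values was not tested beyond these subtractions.

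**Figure D4:**
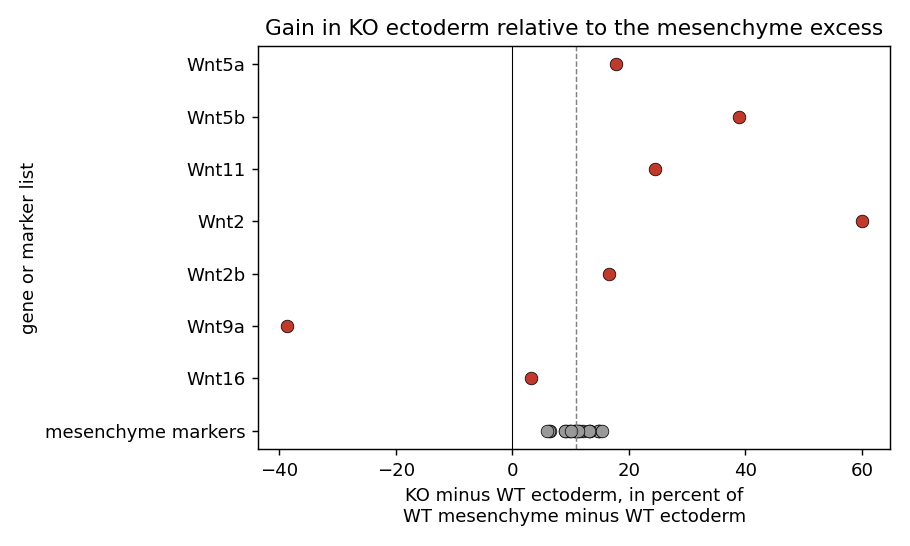
TPM gained in ectoderm (KO minus WT) as a percentage of the excess of WT mesenchyme over WT ectoderm, for each of the 7 ligands (red) and for 24 mesenchyme markers (grey, dashed line at their median of 10.95%). Wnt5a, Wnt5b, Wnt11 and Wnt2b lie to the right of the 24 markers shown and Wnt16 to their left. Those markers were limited to at least 5-fold more in WT mesenchyme than in WT ectoderm, which among the ligands only Wnt11 met. The points of Wnt2 and Wnt9a rest on an excess of 0.30 and 0.62 TPM and are not read. Nor is that of Wnt16, which rests on a gain of 0.06 TPM.

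In KO mesenchyme 6 of the 7 ligands had lower values than in WT, 5 of them among the 6 measured members. So did 63.4% of all measured genes. The WT mesenchyme value, the base of the ratios below, also entered the selection of the ligands, which favours a lower KO value. The ratios and counts are thus a description. Wnt5b, at 6.62 TPM in KO and 11.95 TPM in WT mesenchyme, had a log2 ratio of -0.77, and Wnt9a, at 2.24 TPM in KO and 4.03 TPM in WT mesenchyme, of -0.64. Wnt11 (-0.50), Wnt2b (-0.35), Wnt5a (-0.23) and Wnt2 (-0.21, under 1 TPM) were within 1.5-fold, as was Wnt16 at 0.10. Of 6 measured members 2 were thus at least 1.5-fold lower and none higher. Over all 14233 measured genes 13.4% were 1.5-fold lower and 2.33% higher, and the median was -0.12. The median of the 6 measured members was -0.43. Among the 29 mesenchyme markers 14 likewise passed 1.5-fold downward, none passed it upward, and their median was -0.58. The 13 neuron markers ran the other way, with 7 past 1.5-fold upward and 0 downward (10 upward once the GC trend was removed) and a sum of 439 TPM in KO mesenchyme and 284 TPM in WT mesenchyme. The part of either cell type in the ligand values was not tested.

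These ratios followed the GC content of the transcripts. From Wnt16, with 40.4% GC in its longest transcript, through Wnt5a (46.7%), Wnt2 (52.1%), Wnt9a (56.4%), Wnt11 (56.5%) and Wnt2b (56.5%) to Wnt5b (60.0%), the log2 ratio in mesenchyme tended to be lower at higher GC, though not step by step. Wnt2, Wnt11 and Wnt2b each had a higher ratio than the ligand before them in this order. Over the 7 ligands Pearson's r was -0.91 and Spearman's rho -0.82, as a description of genes that share 2 columns of values. Over 14118 measured genes with a known transcript r was -0.54. The 3622 genes under 45% GC had a median log2 ratio of 0.14, with 0.61% of them 1.5-fold lower, and the 3174 genes at 55% or more had a median of -0.45, with 34.8% lower. The same GC classes in ectoderm had medians of 0.00 (under 45%) and 0.16 (55% or more).

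With the GC trend removed, no member was 1.5-fold apart between KO and WT mesenchyme. The values were then -0.21 for Wnt5b, -0.18 for Wnt9a, -0.17 for Wnt5a, -0.07 for Wnt16, -0.04 for Wnt11, 0.09 for Wnt2 and 0.11 for Wnt2b, so that Wnt16, Wnt2 and Wnt2b changed sign. The split over all genes turned as well, with 659 higher and 324 lower, against 332 higher and 1902 lower on the deposited scale, and was 639 higher and 968 lower after quantile normalization. In ectoderm the removal left Wnt11 at 0.90 and Wnt5a at 0.74, both still past 1.5-fold. The part of GC in the mesenchyme values was not tested beyond this removal. Of the libraries, those with 2 index barcodes numbered 2 in each KO group, 1 in WT ectoderm and 0 in WT mesenchyme, and values per library were not analysed here.

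**Figure D5:**
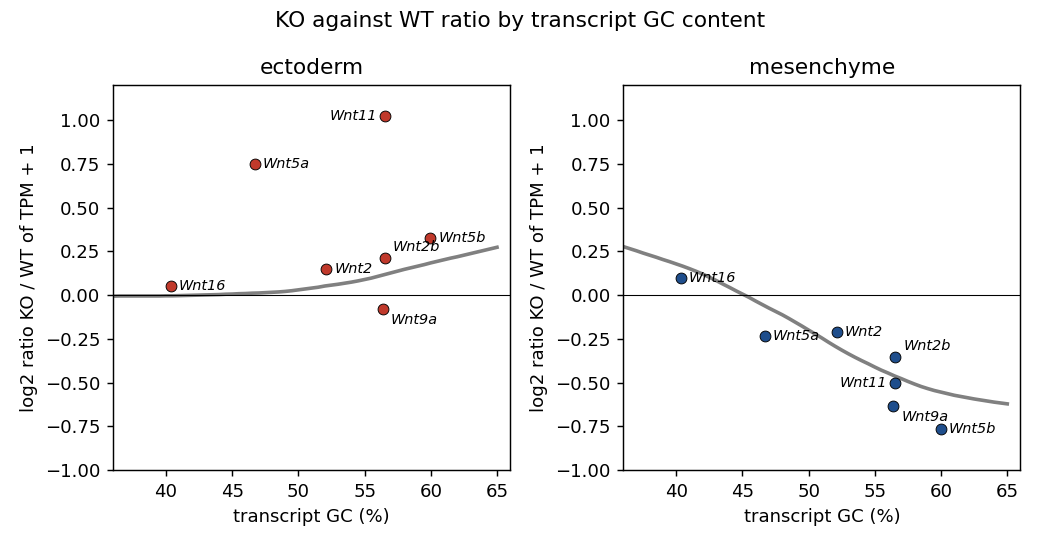
Log2 ratio of KO over WT (TPM plus 1) of the 7 ligands by GC content of the longest transcript in percent, for ectoderm (left, red) and mesenchyme (right, blue), with the lowess trend of all genes at 5 TPM or more in grey. In mesenchyme the ligands lie along the trend, and in ectoderm Wnt11 (1.02) and Wnt5a (0.75) lie well above it.

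Set against each other, the KO differences of the layers were farthest apart for Wnt11. The ectoderm log2 ratio minus the mesenchyme log2 ratio was 1.53 for Wnt11, 1.09 for Wnt5b and 0.98 for Wnt5a. Of 6 measured members 2, Wnt11 and Wnt5b, were past 2-fold, as were 7.34% of all 14329 genes in this direction. This difference contains the WT gap between the layers, on which the ligands were selected, so nothing is read from the count. Wnt2b (0.57), Wnt9a (0.55) and Wnt16 (-0.05) were within 2-fold. With the GC trend removed Wnt11 (0.93), Wnt5a (0.90) and Wnt5b (0.33) were all within 2-fold.

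Receptors and other partners of these ligands were examined from lists. The list of receptors of the branch without beta-catenin also held the Frizzled proteins, which are not particular to that branch. Of its 15 measured genes 6 were at least 1.5-fold lower in KO mesenchyme and 1 higher, with a median of -0.55. Over all genes 13.4% were lower and 2.33% higher. Ptk7, a polarity coreceptor, stood at 48.1 TPM in KO and 108 TPM in WT mesenchyme (log2 ratio -1.15). Ror2, the main receptor of Wnt5a, stood at 18.3 TPM in KO and 41.3 TPM in WT mesenchyme (-1.14). Fzd10 (-0.95) and Fzd1 (-0.92) followed, and Fzd3, a Frizzled of polarity and axon growth, was the higher one (13.2 TPM in KO and 7.00 TPM in WT mesenchyme). With the GC trend removed Ror2 (-0.60) and Ptk7 (-0.61) were still 1.5-fold lower, Fzd1 (-0.49) and Fzd10 (-0.48) were not, and Fzd3 (0.66) was still higher. Wnt5a itself, at -0.23 and -0.17 after the removal, was within 1.5-fold on both scales.

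In ectoderm 2 of 14 measured receptors were 1.5-fold higher and none lower, where 4.92% of all genes were higher and 0.452% lower. These were Mcam, an adhesion protein of blood vessels that also binds Wnt5a, at 27.3 TPM in KO and 11.6 TPM in WT ectoderm, and Ror2, at 9.26 TPM in KO and 5.80 TPM in WT ectoderm. Both had more RNA in WT mesenchyme than in the WT ectoderm, 42.5 TPM for Mcam and 41.3 TPM for Ror2. Ror2 (0.43) was within 1.5-fold after removal of the GC trend.

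Genes that act below these receptors were counted in the same way. Planar cell polarity genes had 6 of 23 lower and none higher in KO mesenchyme (median -0.38; 13.4% of all genes lower, and 34.8% of those at 55% GC or more), with Daam2, an actin regulator, at 25.7 TPM in KO and 49.7 TPM in WT mesenchyme, and Scrib, Dvl3 and Dvl2 next. Genes of the calcium branch had 5 of 14 lower and none higher (median -0.36), led by Nfatc1 (4.87 TPM in KO and 11.4 TPM in WT mesenchyme). With the GC trend removed, 1 of 23 polarity genes (Daam2) was lower and 1 (Celsr3) higher, and 2 of 14 calcium genes were lower. Over all 14118 genes 324 were then lower and 659 higher. In KO ectoderm 3 of 22 polarity genes were higher, Dact1 (17.4 TPM in KO and 7.25 TPM in WT), Daam2 and Prickle1. Of 11 calcium genes 2 were higher, Nfatc1 and Nfatc4, and none of either list was lower. Over all genes 4.92% were higher there and 0.452% lower. Dact1 (60.3 TPM), Daam2 (49.7 TPM), Prickle1 (40.3 TPM), Nfatc1 (11.4 TPM) and Nfatc4 (135 TPM) each had more RNA in WT mesenchyme than in WT ectoderm. The part of mesenchyme cells in their ectoderm values was not tested.

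Genes that release or trap Wnt ligands, and readouts of beta-catenin, complete the picture. Wls, the carrier of Wnt ligands, stood at 71.1 TPM in KO and 77.8 TPM in WT mesenchyme, and at 168 TPM in KO and 223 TPM in WT ectoderm. Of 8 maturation and release genes 1, the glypican Gpc4, was 1.5-fold lower in KO mesenchyme, where 13.4% of all genes were. None of 7 was apart in ectoderm. Sfrp2, a secreted Wnt binder, stood at 73.8 TPM in KO and 151 TPM in WT mesenchyme, and was the 1 of 5 binders apart there. In ectoderm 2 of 4 binders were higher, against 4.92% of all genes. They were Frzb (9.16 TPM in KO and 1.64 TPM in WT) and Sfrp2 (52.5 TPM in KO and 24.2 TPM in WT). Of 14 beta-catenin feedback and target genes 7 were lower in KO mesenchyme and none higher, against 13.4% of all genes lower. After removal of the GC trend 3 (Lef1, Apcdd1 and Tcf7) were lower, against 324 of all 14118 genes. In ectoderm 2 of 15 were higher and none lower, against 4.92% of all genes higher. These were the feedback inhibitors Nkd2 (5.89 TPM in KO and 3.0 TPM in WT ectoderm) and Dkk1 (3.30 TPM in KO and 1.56 TPM in WT ectoderm). Nkd2 (34.2 TPM), Dkk1 (24.9 TPM), Frzb (72.6 TPM) and Sfrp2 (151 TPM) each had more RNA in WT mesenchyme than in WT ectoderm. The part of mesenchyme cells in their ectoderm values was not tested.

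Genes with the profile most like that of a member were sought over the 4 groups, by Euclidean distance between mean-centred log2 values of TPM plus 1, among 10486 protein-coding genes averaging 5 TPM or more. Nearest to Wnt5a were Cldn11 (distance 0.14), Nrk (0.14) and Shd (0.16). Nearest to Wnt11 were Fhl3 (0.17), Crmp1 (0.19) and Tubb6 (0.21). Wnt5b had closer ones, Sppl2b (0.02), Snx15 (0.05) and Cptp (0.07), with Sppl2b at 18.5 TPM in KO ectoderm, 14.8 TPM in WT ectoderm, 14.3 TPM in KO mesenchyme and 24.6 TPM in WT mesenchyme. Each profile rests on 4 values, and the other members were below 5 TPM on average.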

How the data were processed

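RNA was measured in 16 libraries, 4 in each of 4 groups. The authors deposited 1 table of TPM values per gene symbol, with 1 column per group, per the file headers. The submitters' processing notes list STAR 2.5.2a, kallisto 0.43.0 and mm10. The tool behind the TPM, its annotation and how 4 libraries became 1 value are not stated in the sources used. Each column was treated as a pooled value, so no test was run, no SD or n is given, and the depth is unknown. Where a symbol had several rows (103 symbols, none a member), that with the largest total was used.

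From these TPM, log2 ratios of TPM plus 1 were computed for genes averaging 1 TPM or more over the groups compared, with Python 3.11.15, and counted past 1.5-fold (KO against WT) or 2-fold (layers, and the difference between KO effects). Positions, gene types and the GC content of the longest transcript came from GENCODE release M21 on GRCm38 (99.0% of symbols matched). GC trends were fitted by lowess (fraction 0.3, genes at 5 TPM or more). No stretch of 31 bases was shared between transcripts of different members, a check of whether reads could be split between them. The ratio, trend removal and marker gain steps were tested on simulated data, in which KO ectoderm was a noise-free mixture of the 2 WT layers. The subtraction of a share was not tested in this way. Genes named beside the 7 members are, from each list, at most 4 past 1.5-fold with the widest ratio, markers, the 3 nearest profiles, or (Celsr3, Wnt3a and genes given for contrast) picked with their values in view. The members and lists were chosen with earlier results of these data known. Protein sequences were not used here.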

Additional observations from a re-analysis of the deposited data

How the results depend on the processing

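No paired analysis was possible because the table has 1 value per group, and for the same reason no library could be left out. The deposited scale gave 2 members higher in KO ectoderm, 2 lower in KO mesenchyme, 2 lower in KO ectoderm than in KO mesenchyme, 3 lower in WT ectoderm than in WT mesenchyme, and 2 with a higher KO effect in ectoderm. With a pseudocount of 5 these were 1, 0 and 1 for the first 3, and 0 for the KO effects. With a mean of at least 5 TPM the first 3 were 1, 1 and 1, since fewer members were measured. Quantile normalization left 1 lower in KO mesenchyme (Wnt5b) and 1 for the KO effects (Wnt11). Removal of the GC trend left 0 lower in KO mesenchyme and 0 for the KO effects, as did removal of GC and length trends, an alternative chosen after seeing the data. At a limit of a 25% excess, 4 members were lower in KO mesenchyme, 4 lower and 2 higher in KO ectoderm than in KO mesenchyme, 5 lower in WT ectoderm than in WT mesenchyme, and 5 were higher for the KO effects. Over all genes 4370 of 14233 were then lower in KO mesenchyme. Between the KO layers 3561 of 14411 were lower and 4093 higher in ectoderm. In WT 5095 of 14242 were lower in ectoderm, and 5653 of 14329 were higher for the KO effects. At 3-fold the first 3 member counts and that for the KO effects were 0. Subtraction of a mesenchyme share from KO ectoderm left 1 higher (Wnt11), whether the share was 10.95% of WT mesenchyme or, both chosen after seeing the data, 16.4% of KO mesenchyme or 14.1% of WT mesenchyme. Over the 11 alternatives in ectoderm the log2 ratio of Wnt11 lay between 0.47 and 1.41 and that of Wnt5a between 0.22 and 0.76. No share of WT mesenchyme above 14.1% was among these alternatives. Over the 8 in mesenchyme Wnt5b lay between -0.84 and -0.21 and Wnt9a between -0.82 and -0.13. Over all genes the split in ectoderm was 686 higher and 63 lower, and 467 and 131 after quantile normalization, which moved the median of all genes by 0.14 in mesenchyme, as removal of GC did by 0.15, and in the difference between KO effects by -0.23, as removal of GC did by -0.21. For the difference between KO effects it was 1052 higher and 85 lower, 479 and 179 after quantile normalization and 312 and 175 after removal of GC. TPM keep no depth, so no limit of detection can be given for Wnt2 and Wnt16.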

Other observations

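Wnt9a lies next to another Wnt gene that differed more in ectoderm. Wnt3a, a beta-catenin ligand, ends its 5′ side 16.2 kb from the start of Wnt9a on chromosome 11 (59248033 to 59290752 on the minus strand for Wnt3a, 59306928 to 59333552 on the plus strand for Wnt9a, GRCm38), so that the pair is transcribed away from each other. Wnt3a stood at 5.01 TPM in KO ectoderm and 10.1 TPM in WT ectoderm, and at 0.04 TPM in KO mesenchyme and 0.03 TPM in WT mesenchyme. Wnt9a stood at 3.17 TPM in KO ectoderm and 3.41 TPM in WT ectoderm, and at 2.24 TPM in KO mesenchyme and 4.03 TPM in WT mesenchyme. Wnt3a was too low in mesenchyme to be compared there, and the lower Wnt9a value in KO mesenchyme was within 1.5-fold once the GC trend was removed (log2 ratio -0.18) or after quantile normalization (-0.57). Wnt2 and Wnt16 share chromosome 6 but lie 4258 kb apart, and no other member has a second Wnt gene nearby.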
